A study of Mus musculus with 4 samples.

Results

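The Rab, Arf, Arl and Sar1 GTPases are the small GTP-binding proteins that direct membrane traffic. Their mRNAs were followed here in RNA that was precipitated from mouse brain with an antibody against CPEB3. Members were taken by gene symbol from the annotation of the array: Rab with a number and at most 1 letter from a to d, Arf1 to Arf6, Arl with a number and at most 1 letter from a to c, and Sar1a or Sar1b. The rule took 84 of 34821 gene symbols on the array (57 Rab, 19 Arl, 6 Arf and 2 Sar1) with 120 of 55681 distinct probes. The rule uses symbols and no measured value, but it was drawn up with earlier results of these data known. After probes that were well above background on fewer than 2 of the 4 arrays were left out, 81 member genes with 114 probes remained among 27586 genes with 40608 probes. Arl11, Arl13a and Rab25 did not pass that filter, and neither did 1 probe each of Arl4c, Rab17 and Rab38, whose other probes were kept.

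Both groups came from corticohippocampal lysate (cortex and hippocampus together) of 8-week-old male C57BL/6 mice, an inbred laboratory strain, with no genetic change or treatment named in the labels. The lysate was incubated for 3 h with beads that carried CPEB3 IgG in one group and control IgG in the other, and the RNA on the beads (0.2 ug per sample) was amplified and read with the dye Cy3 on a 1-colour array. There were 2 arrays per group and no array of the lysate itself, so each value compares an RNA's place in the CPEB3 IgG precipitate with its place in the control IgG precipitate and is not its amount in the tissue. In tissue lysate, fewer cells of a type and less RNA per cell cannot be told apart. The labels do not say whether the replicates came from separate animals, so a p-value here speaks of the spread of these 4 arrays alone, and that spread may be technical.

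A Rab or Arf protein is a switch. Exchange factors load it with GTP on a given membrane, it then recruits effectors such as coats, tethers and motor adaptors, and GTPase-activating proteins turn it off. Each compartment has its own set: Sar1 and Rab1 act between endoplasmic reticulum and Golgi, Rab5 on early endosomes, Rab7 on late endosomes, Rab11 on recycling endosomes and Rab3 on synaptic vesicles. In neurons the same proteins move receptors into and out of synapses. CPEB3, cytoplasmic polyadenylation element binding protein 3, binds U-rich stretches of mRNAs, mainly behind the coding region, and regulates their translation. The comparison asks which mRNAs were recovered more, or less, with CPEB3 IgG than with control IgG.

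A level in this text is the log2 spot signal minus the 75th percentile of that array, so 0 is the signal at that percentile, and levels of different probes are not set against each other. A difference is the mean level with CPEB3 IgG minus the mean level with control IgG on the log2 scale, given with its standard error from limma (n = 2 arrays per group). A gene is represented by its brightest kept probe, and a call is an adjusted p under 0.05 over all 27586 genes. Between 68.0% and 73.4% of all probes were well above background on each array, no spot was saturated (0 on each array), and the small number of arrays limits the precision. Levels of the kept probes correlated at 0.986 between the CPEB3 IgG replicates, at 0.977 between the control IgG replicates and at 0.925 to 0.939 between arrays of different groups. The first number of the array position on the slide was shared within each group and differed between the groups: the effects of slide position and of antibody cannot be told apart. Of the neuron markers, 8 of 8 were well above background on all 4 arrays. Their signals, relative to the array's 75th percentile, were summed before the log2 was taken, so the brightest markers weigh most. That log2 sum was 8.36 and 8.39 on the CPEB3 IgG arrays and 8.37 and 8.39 on the control arrays. The log2 sum of 5 astrocyte markers was 6.40 and 5.61 against 5.44 and 5.11. That of 5 oligodendrocyte markers was 6.85 and 6.59 against 7.19 and 6.90. For 5 microglia markers it was 4.30 and 3.81 against 4.77 and 4.60, and for 3 endothelial markers 2.67 and 2.30 against 2.40 and 2.13. Of these markers, Rbfox3, Slc1a3 and Gja1 were higher and Tubb3, Aldh1l1, Cnp, Aif1 and C1qa lower. The astrocyte markers Slc1a3, at 3.16, and Aldh1l1, at −3.03, went opposite ways, so a sum does not stand for its single markers. Tek, an endothelial marker, did not pass the filter, and the part of these cells in the results was not tested.

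Of the 81 member genes, 32 were higher with CPEB3 IgG and 17 were lower, beside 19.2% higher and 20.2% lower of all genes tested. As shares, 39.5% of the members were higher and 21.0% lower. Among the 17179 genes whose brightest probe had a RefSeq accession, 25.6% were higher and 19.8% lower. The median difference of the members was 0.29, that of all genes −0.14 and that of the RefSeq genes −0.01. Another scaling of the arrays moves all differences together: the median of all genes was 0.15 when arrays were scaled to their median and 0.58 when they were scaled to the spike-in controls, and the members' median was 0.58 and 1.01. Each of these 3 scalings shifts all genes by 1 constant, so the members' median lay 0.43 above that of all genes in each. That gap was 0.27 under quantile scaling, 0.35 with the mean of a gene's probes and 0.18 at the probe furthest 5′. Of the members' calls, 65.3% were higher in the main scaling, 77.6% under the median and 96.7% under the spike-in controls, beside 48.7%, 68.5% and 88.0% of the calls over all genes. A lower call below therefore means lower than the bulk of the array, and Arl2 alone of the 17 was still called lower under spike-in scaling. The others lost the call there, but of the 17 only Rab39b and Rab5a changed sign. Rab7, for example, stood at −1.22 and Rab11a at −1.14. Spike-in scaling also changes the spread between replicate arrays, and the part of that spread in the lost calls was not tested.

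All 49 called members were well above background on every array, and their groups did not overlap. Groups did not overlap in 72 of the 81 members (88.9%), beside 72.9% of all genes and 76.8% of the RefSeq genes. Of the 49 calls, 19 were kept when each array was left out in turn, 30 were lost without at least 1 array, and 0 changed sign. The 14 higher calls that were kept were those of Rab28, Arl13b, Rab8b, Rab40b, Rab2b, Arf4, Sar1a, Arl5a, Rab31, Rab27b, Arl15, Rab10, Rab12 and Arf5. The 5 lower calls that were kept were those of Arl2, Rab7, Rab11a, Rab33a and Rab3b. Without CPEB3 IgG replicate 1 there were 16 higher and 5 lower members, and without CPEB3 IgG replicate 2 there were 15 and 6. Without control IgG replicate 1 the counts were 20 and 12, and without control IgG replicate 2 they were 24 and 11.

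By family, 19 of 56 Rab genes were higher and 14 lower, 9 of 17 Arl genes were higher and 2 lower, and 4 of 8 Arf and Sar1 genes were higher and 1 lower. The median difference was 0.26 for Rab, 0.65 for Arl and 0.69 for Arf and Sar1, all above 0 under each of the 5 scalings run. The counts of lower genes depend on the scaling: under the spike-in controls 0 Rab, 1 Arl and 0 Arf and Sar1 genes were lower. Whether the families, or the role groups below, differ from each other was not tested. The shares over all genes, 19.2% higher and 20.2% lower, are the background of these counts and of those per role group.

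**Figure D1:**
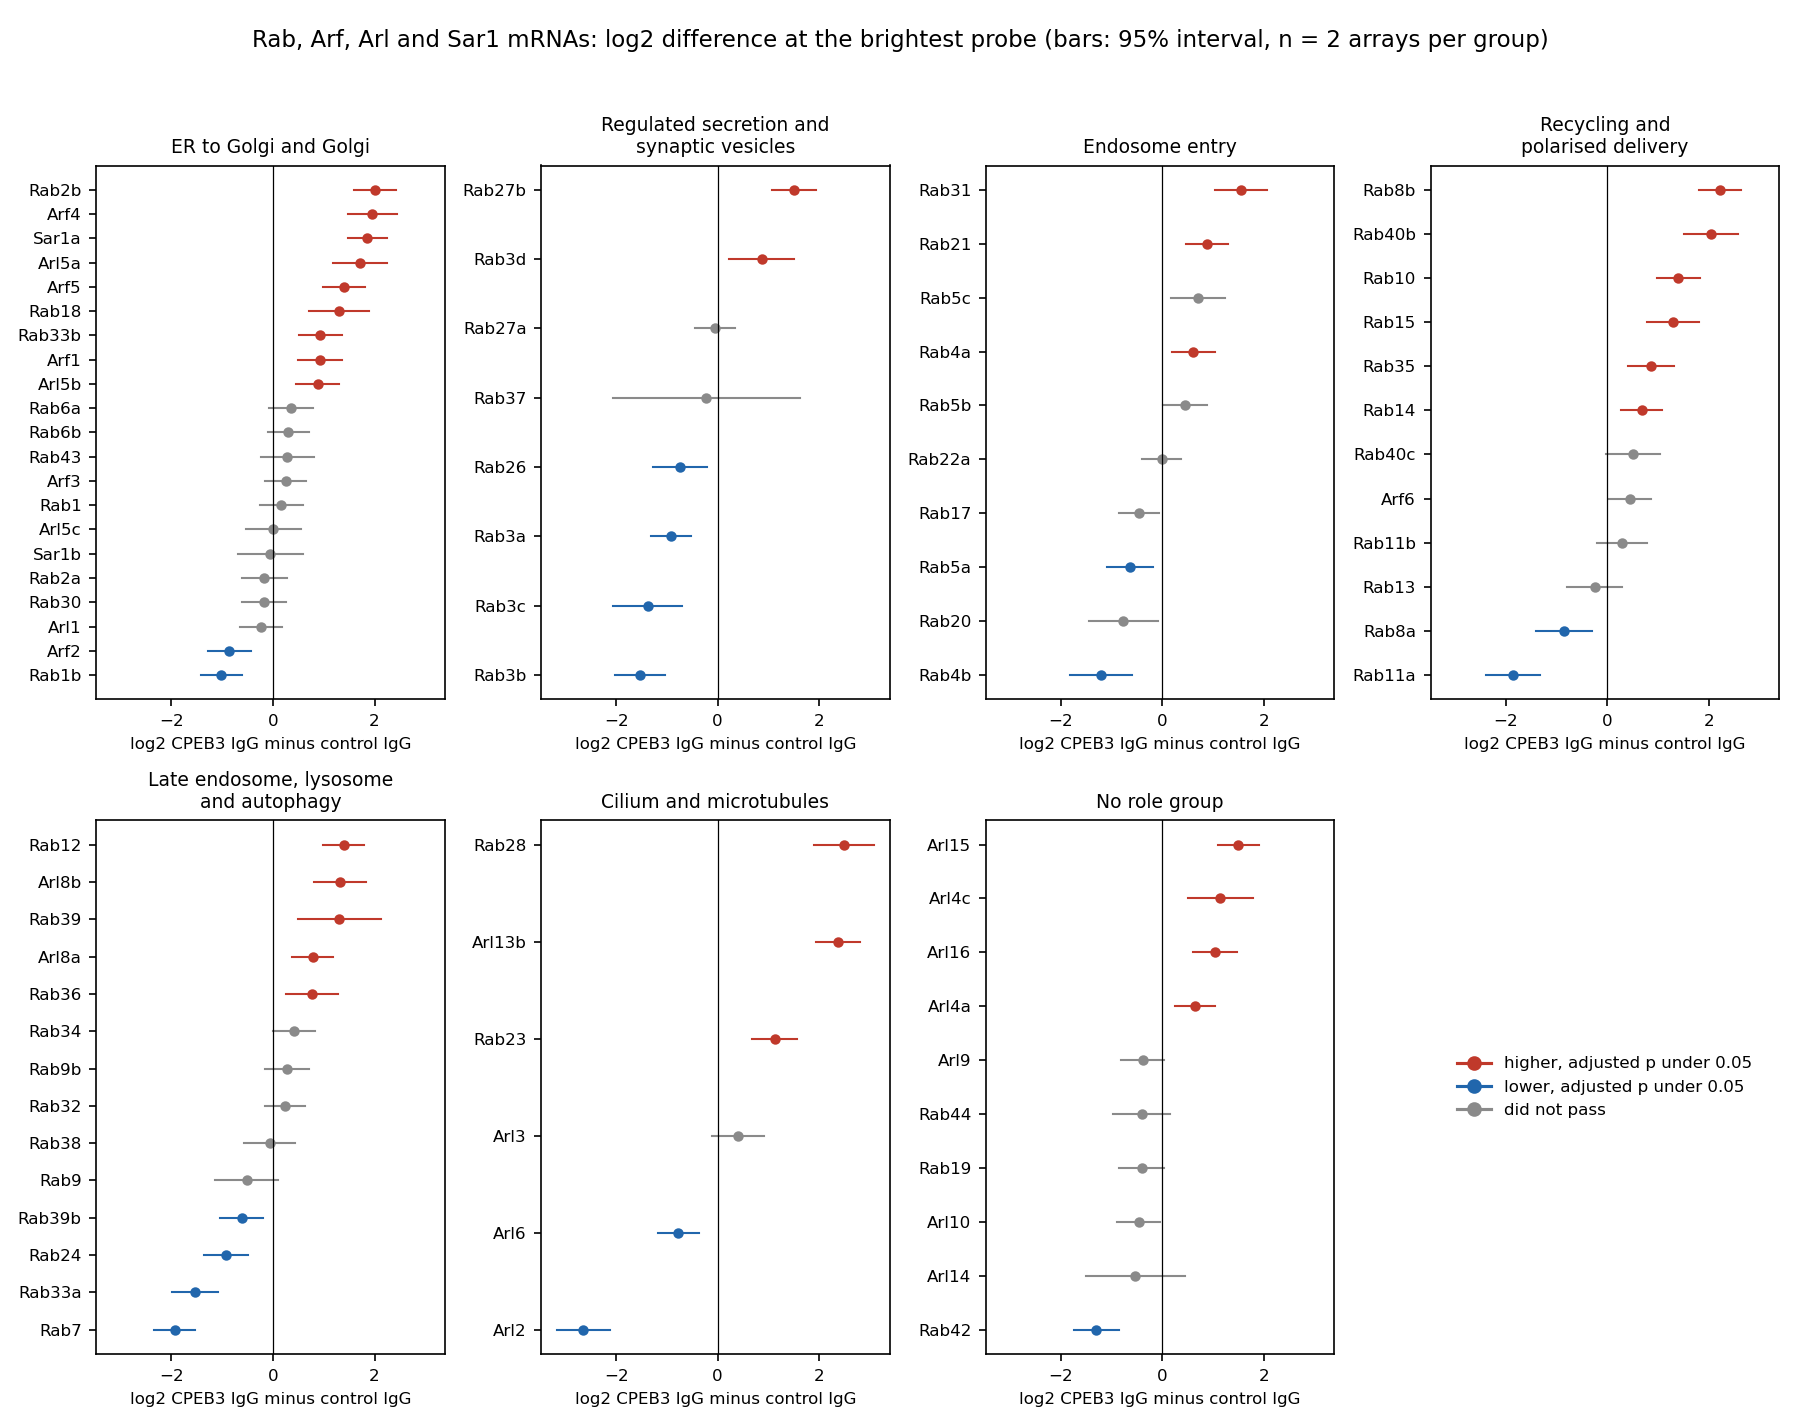
Log2 difference, CPEB3 IgG minus control IgG, of the 81 member genes at their brightest probe, grouped by role, with points for the estimate and bars for its 95% interval (n = 2 arrays per group). Red marks the 32 genes called higher and blue the 17 called lower relative to the array's 75th percentile; every role group except regulated secretion holds more red points than blue ones in this scaling (under quantile scaling endosome entry holds 2 of each), and under spike-in scaling only Arl2 stays called lower.

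Genes of the cilium and of microtubule assembly held both ends of the range. Of 6 kept genes, 3 were higher and 2 lower. Rab28, which is found at the base of cilia and is needed in photoreceptors, lay at 1.93 and 2.16 on the CPEB3 IgG arrays and −0.65 and −0.23 on the control arrays. Its groups did not overlap, and the difference was 2.49 ± 0.22 (adjusted p = 0.00409), the highest of all members. Arl13b, a ciliary GTPase that activates Arl3 and is mutated in Joubert syndrome, had levels of 1.47 and 1.27 on the CPEB3 IgG arrays and −0.99 and −1.01 on the control arrays. Both CPEB3 IgG arrays were above both control arrays, by 2.37 ± 0.16 (adjusted p = 0.00384). At the other end stood Arl2, which regulates the folding of tubulin. Its levels were −0.51 and −0.73 on the CPEB3 IgG arrays and 1.87 and 2.18 on the control arrays, without overlap, and the difference was −2.64 ± 0.19 (adjusted p = 0.00384), the lowest of all members and also lower under every scaling run. Rab23, a brake on Hedgehog signalling, was higher by 1.12 ± 0.16 (adjusted p = 0.0105), and Arl6, which brings the BBSome coat to membranes, was lower at −0.78 ± 0.15 (adjusted p = 0.0205), a call lost with the mean of its probes. Arl3, which releases lipid-anchored cargo in the cilium, had a difference of 0.40 ± 0.19 (adjusted p = 0.163) and did not pass.

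Of the 21 genes that act between endoplasmic reticulum and Golgi or at the Golgi, 9 were higher and 2 were lower. Sar1a starts the COPII coat at exit sites of the endoplasmic reticulum. Its levels were 6.24 and 6.25 on the CPEB3 IgG arrays and 4.36 and 4.40 on the control arrays. The control arrays did not reach the CPEB3 IgG arrays, and the difference was 1.86 ± 0.14 (adjusted p = 0.00385). Its close relative Sar1b lay at 1.25 and 1.29 on the CPEB3 IgG arrays and 1.04 and 1.59 on the control arrays. Here the groups overlapped, with the 2 control values on either side of both CPEB3 IgG values, and the difference of −0.05 ± 0.24 (adjusted p = 0.884) changed sign under median and spike-in scaling and without control IgG replicate 2.

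Rab2b, a Golgi Rab, had levels of 4.47 and 4.32 on the CPEB3 IgG arrays and 2.43 and 2.36 on the control arrays. Neither group reached the other, and the difference was 2.00 ± 0.15 (adjusted p = 0.00384). Arf4, which acts at the trans-Golgi network and in traffic to cilia, lay at 3.75 and 3.83 on the CPEB3 IgG arrays and 1.68 and 1.98 on the control arrays. Its groups were apart, by 1.96 ± 0.18 (adjusted p = 0.00432). Arl5a, a trans-Golgi GTPase that recruits a tether for vesicles from endosomes, was at 1.85 and 2.25 on the CPEB3 IgG arrays and 0.35 and 0.33 on the control arrays. It was higher on both CPEB3 IgG arrays, with a difference of 1.71 ± 0.20 (adjusted p = 0.00642). Arf1, which recruits the COPI coat and clathrin adaptors to the Golgi, lay at 6.87 and 6.74 on the CPEB3 IgG arrays and 5.80 and 5.95 on the control arrays. Its groups did not overlap and differed by 0.93 ± 0.16 (adjusted p = 0.0152). The other higher genes of this group were Arf5 at 1.39, Rab18 at 1.30, Rab33b at 0.94 and Arl5b at 0.89, of which Rab33b lost its call with the mean of its probes.

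Rab1, the Rab of early secretory traffic that RefSeq now names Rab1a, lay at 4.39 and 4.24 on the CPEB3 IgG arrays and 4.10 and 4.20 on the control arrays. The groups did not overlap, yet the difference of 0.17 ± 0.16 (adjusted p = 0.442) did not pass. Rab1b, its relative in the same step, was at 3.47 and 3.52 on the CPEB3 IgG arrays and 4.56 and 4.46 on the control arrays. Both control arrays were higher, and the difference was −1.01 ± 0.15 (adjusted p = 0.0107). Arf2, the other lower gene, had a difference of −0.86. The Golgi Rabs Rab6a and Rab6b, of which Rab6b is enriched in neurons, did not pass at their brightest probes. Rab6a lay at 5.81 and 5.79 on the CPEB3 IgG arrays and 5.33 and 5.56 on the control arrays, with a difference of 0.35 ± 0.16 (adjusted p = 0.158). A further Rab6a probe, annotated to another transcript record, was called higher at 0.73 in the fit over all probes. Rab6b lay at 7.12 and 7.23 on the CPEB3 IgG arrays and 6.90 and 6.83 on the control arrays, with a difference of 0.31 ± 0.15 (adjusted p = 0.179). In both, the CPEB3 IgG arrays were the higher ones, with no overlap. The other uncalled genes here ran from −0.23 for Arl1 to 0.28 for Rab43. A further Arl1 probe, at nucleotide 422, was called lower at −1.16 in the fit over all probes.

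Genes of regulated secretion and synaptic vesicles were the one role group with more lower than higher calls, 4 against 2 of 8, and their median difference was −0.48. That median stayed below 0 under median and quantile scaling and was 0.24 under spike-in scaling, where 0 of the 8 were lower. Rab3a, the main Rab of synaptic vesicles, lay at 6.67 and 6.67 on the CPEB3 IgG arrays and 7.57 and 7.60 on the control arrays. The control arrays were both above the CPEB3 IgG arrays, and the difference was −0.92 ± 0.14 (adjusted p = 0.0125). Rab3b, a further Rab3 of vesicles, had levels of 2.70 and 2.44 on the CPEB3 IgG arrays and 4.18 and 4.01 on the control arrays. Its control arrays were also the higher ones, and the difference was −1.53 ± 0.18 (adjusted p = 0.00655). Rab3c, another neuronal Rab3, was at 5.03 and 4.79 on the CPEB3 IgG arrays and 6.57 and 6.00 on the control arrays. The groups did not overlap, and the difference was −1.38 ± 0.25 (adjusted p = 0.0179).

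Rab3d, best known from secretory granules of exocrine cells, went the other way at its brightest probe. Its levels were −0.79 and −0.27 on the CPEB3 IgG arrays and −1.51 and −1.28 on the control arrays, and its groups did not overlap. The difference of 0.87 ± 0.24 (adjusted p = 0.0492) passed narrowly, and it changed sign when the mean of its probes was used. In the fit over all probes that probe did not pass. Its other probe, at nucleotide 480, was called lower there at −1.27, the direction of its 3 relatives. Rab27b, which docks dense-core and other secretory vesicles, lay at 2.35 and 2.16 on the CPEB3 IgG arrays and 0.76 and 0.75 on the control arrays. It was higher on both CPEB3 IgG arrays, by 1.50 ± 0.16 (adjusted p = 0.00533). Of the rest, Rab26 was lower at −0.74, while Rab27a at −0.05 and Rab37 at −0.22 did not pass.

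**Figure D2:**
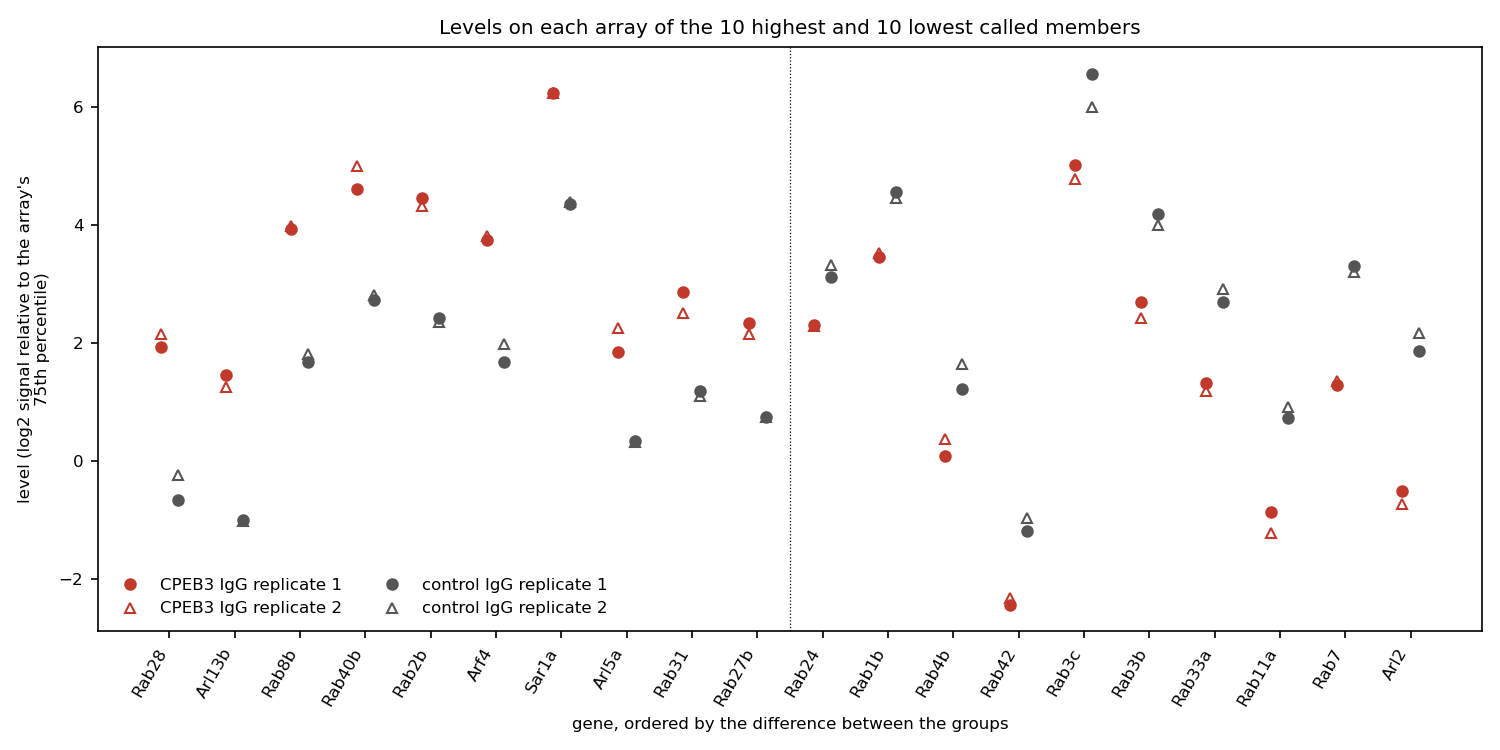
Level of the 10 members with the highest and the 10 with the lowest called difference on each of the 4 arrays (log2 signal relative to the array's 75th percentile), red for CPEB3 IgG and grey for control IgG, filled circles for replicate 1 and open triangles for replicate 2. In each of the 20 genes the 2 red points lie on one side of the 2 grey points, from Rab28 at the left (2.49) to Arl2 at the right (−2.64).

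Of the 10 genes of endosome entry, 3 were higher and 2 lower. The 3 Rab5 genes, whose proteins fuse early endosomes, did not move together at their brightest probes, which start at nucleotides 2022, 3103 and 1512. Rab5a lay at 2.85 and 2.72 on the CPEB3 IgG arrays and 3.32 and 3.54 on the control arrays. Its control arrays were higher, and the difference was −0.65 ± 0.17 (adjusted p = 0.0425), which turned to 0.069 under spike-in scaling. In the fit over all probes that probe did not pass, while its probe at nucleotide 1286 was called lower at −1.23. Rab5b was at 3.77 and 3.96 on the CPEB3 IgG arrays and 3.38 and 3.47 on the control arrays. There the CPEB3 IgG arrays were above the control arrays, with a difference of 0.44 ± 0.16 (adjusted p = 0.0942) that did not pass and that changed sign when its probes were averaged. Its probes at nucleotides 685 and 1019 gave −0.90 and −0.36, and that at 1821 gave 0.35. None of its probes passed in the fit over all probes. Rab5c lay at 4.50 and 4.19 on the CPEB3 IgG arrays and 3.77 and 3.52 on the control arrays. Its groups did not overlap either, and the difference of 0.70 ± 0.20 (adjusted p = 0.0518) just missed the threshold.

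Rab31, which acts between the trans-Golgi network and endosomes, had levels of 2.88 and 2.51 on the CPEB3 IgG arrays and 1.19 and 1.11 on the control arrays. Its groups were apart, by 1.54 ± 0.19 (adjusted p = 0.00735). Rab4b, a Rab of fast recycling from early endosomes, was at 0.08 and 0.38 on the CPEB3 IgG arrays and 1.22 and 1.64 on the control arrays. Here the control arrays were higher, and the difference was −1.20 ± 0.23 (adjusted p = 0.0189). Its relative Rab4a was higher at 0.61 at its brightest probe, at nucleotide 1348. Its other probe, at 620, was called lower at −0.82 in the fit over all probes. With the mean of its probes Rab4a stood at −0.11 and lost its call. The single probe of Rab4b sits at nucleotide 517. Rab21, which carries integrins into cells, was higher at 0.88. Rab17, Rab20 and Rab22a did not pass, at −0.46, −0.77 and −0.02.

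Recycling and polarised delivery held 6 higher and 2 lower genes of 12. Rab8b, which like Rab8a carries vesicles from the Golgi and recycling endosomes to the cell surface, lay at 3.94 and 3.98 on the CPEB3 IgG arrays and 1.67 and 1.82 on the control arrays. Its groups did not overlap, and the difference was 2.22 ± 0.15 (adjusted p = 0.00384). Rab8a had levels of 0.58 and 0.84 on the CPEB3 IgG arrays and 1.73 and 1.39 on the control arrays. In that gene the control arrays were higher, by a difference of −0.85 ± 0.20 (adjusted p = 0.0352). The mean of its probes gave a difference of 0.15, because the probes disagree.

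Rab10, a Rab of membrane delivery to the growing axon and of glucose transporter insertion, lay at 4.71 and 4.84 on the CPEB3 IgG arrays and 3.44 and 3.31 on the control arrays. Both CPEB3 IgG arrays were higher, by 1.40 ± 0.16 (adjusted p = 0.00604), but with the mean of its probes the difference was 0.13 and lost its call. Rab40b, which has a domain that joins a ubiquitin ligase, was at 4.62 and 5.01 on the CPEB3 IgG arrays and 2.74 and 2.81 on the control arrays. Its groups were apart, by 2.04 ± 0.20 (adjusted p = 0.00463). Rab11a, the recycling endosome Rab that brings glutamate receptors to dendritic spines, lay at −0.86 and −1.21 on the CPEB3 IgG arrays and 0.73 and 0.92 on the control arrays. Both control arrays were above 0 and both CPEB3 IgG arrays below it, with a difference of −1.86 ± 0.20 (adjusted p = 0.00543). Rab11b, its neuron-enriched relative, was at 4.96 and 5.27 on the CPEB3 IgG arrays and 4.76 and 4.89 on the control arrays. The groups did not overlap, and the difference of 0.29 ± 0.19 (adjusted p = 0.271) did not pass.

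Arf6, which acts on recycling at the plasma membrane and in dendritic spines, lay at 2.12 and 1.99 on the CPEB3 IgG arrays and 1.59 and 1.64 on the control arrays. The CPEB3 IgG arrays were higher, but the difference of 0.44 ± 0.15 (adjusted p = 0.0815) did not pass. Rab15, Rab35 and Rab14, 3 further Rabs of endosomal recycling, were higher at 1.30, 0.87 and 0.68. Rab13 at −0.25 and Rab40c at 0.51 did not pass.

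Late endosomes, lysosomes, related organelles and autophagy gave 5 higher and 4 lower genes of 14. Rab7, the Rab that brings late endosomes to lysosomes, had levels of 1.29 and 1.36 on the CPEB3 IgG arrays and 3.31 and 3.20 on the control arrays. Both control arrays were higher, and the difference was −1.93 ± 0.15 (adjusted p = 0.00385). Rab33a, which takes part in axon growth in rat neurons, lay at 1.33 and 1.20 on the CPEB3 IgG arrays and 2.69 and 2.91 on the control arrays. It too was higher on both control arrays, by a difference of −1.54 ± 0.17 (adjusted p = 0.00571). Rab24, which acts in autophagy, was at 2.31 and 2.29 on the CPEB3 IgG arrays and 3.12 and 3.32 on the control arrays. Its groups were apart, at −0.92 ± 0.16 (adjusted p = 0.0158).

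The lysosomal Arl8 genes, which link lysosomes and presynaptic cargo to kinesin motors, were both higher. Arl8a lay at 4.64 and 4.56 on the CPEB3 IgG arrays and 3.87 and 3.77 on the control arrays, and the difference was 0.78 ± 0.15 (adjusted p = 0.02). Arl8b lay at 4.60 and 4.88 on the CPEB3 IgG arrays and 3.30 and 3.53 on the control arrays, and the difference was 1.33 ± 0.19 (adjusted p = 0.00996). In both, no control array reached a CPEB3 IgG array. Rab12, Rab39 and Rab36 were higher at 1.40, 1.31 and 0.77. Rab39b, mutated in X-linked intellectual disability, was lower at −0.62, and under spike-in scaling it stood at 0.10. Its probe did not pass in the fit over all probes. Rab9, Rab9b, Rab32, Rab34 and Rab38 did not pass, with differences from −0.52 to 0.42. A further Rab9 probe, at nucleotide 895, was called lower at −1.41 in the fit over all probes.

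Of the 10 members without a role group, 4 were higher and 1 lower. The higher ones were Arl15 at 1.49, Arl4c at 1.14, Arl16 at 1.03 and Arl4a at 0.65, where Arl4 proteins bring Arf exchange factors to the plasma membrane. Rab42 was the lower one. Its levels were −2.43 and −2.32 on the CPEB3 IgG arrays and −1.18 and −0.97 on the control arrays, with no overlap and a difference of −1.30 ± 0.17 (adjusted p = 0.00763). Arl9, Arl10, Arl14, Rab19 and Rab44 did not pass and lay between −0.53 and −0.39.

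Close relatives were then compared directly, as the difference of 1 gene minus that of the other, each at its brightest probe. Members that share a family name and number gave 26 pairs, and 16 of them differed at an adjusted p under 0.05. Pairs of unrelated genes were not tested, so this count has no background share. The tests of relatives do not depend on a scaling that shifts a whole array. The widest gap was between Rab8a and Rab8b, at −3.07 ± 0.25 (adjusted p = 0.0175). Rab33a minus Rab33b was −2.48 ± 0.20 (adjusted p = 0.0175), and Rab2a minus Rab2b was −2.17 ± 0.18 (adjusted p = 0.0175). In Rab3, the brightest probe of Rab3d stood apart from those of its 3 relatives: Rab3b minus Rab3d was −2.40 ± 0.35 (adjusted p = 0.0279), Rab3c minus Rab3d was −2.25 ± 0.42 (adjusted p = 0.041), and Rab3a minus Rab3d was −1.78 ± 0.25 (adjusted p = 0.0264). Rab11a minus Rab11b was −2.15 ± 0.29 (adjusted p = 0.025). Rab39 minus Rab39b was 1.92 ± 0.27 (adjusted p = 0.0263), and Sar1a minus Sar1b was 1.91 ± 0.24 (adjusted p = 0.0233). Rab4a was above Rab4b by 1.81 ± 0.21 (adjusted p = 0.021).

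The other pairs that differed were Arl5a and Arl5c, Rab27a and Rab27b, Rab40b and Rab40c, Rab5a and Rab5c, Rab1 and Rab1b, and Rab5a and Rab5b, with gaps from 1.09 to 1.71 in size. In 10 pairs the difference did not pass, which does not show that they act alike. Rab6a minus Rab6b was 0.05 with a 95% interval of −0.51 to 0.61. Rab3b minus Rab3c was −0.15 (−0.75 to 0.45), and Arl8a minus Arl8b was −0.55 (−1.21 to 0.12). Whenever any 1 array was left out, 0 of the 26 pairs passed after adjustment by limma, while 16 to 19 had an unadjusted p under 0.05. In those fits 0 of the 8356 probe pairs of the whole array passed either, and the smallest adjusted p of any pair was 0.0544 to 0.111. With no filter on dim probes 7 pairs passed. The 2 probes of a pair also sit at different positions of their transcripts: that of Rab8a starts at nucleotide 578 and that of Rab8b at 4598, that of Rab33a at 803 and that of Rab33b at 3100, and that of Rab11a at 404 and that of Rab11b at 1745. Each gap also rests on 1 probe per gene. Second-brightest kept probes of Rab8a (1.16), Sar1a (−0.59), Rab4a (−0.82), Rab3d (−1.27), Rab27b (−0.22) and Rab5b (−0.36) had the opposite sign to the brightest probe. Those of Rab8b (1.14), Rab5a (−1.23), Rab3c (−1.26), Rab33b (0.05) and Arl5c (0.02) had the same sign. The part of probe position, or of the probe chosen, in these gaps was not tested.

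**Figure D3:**
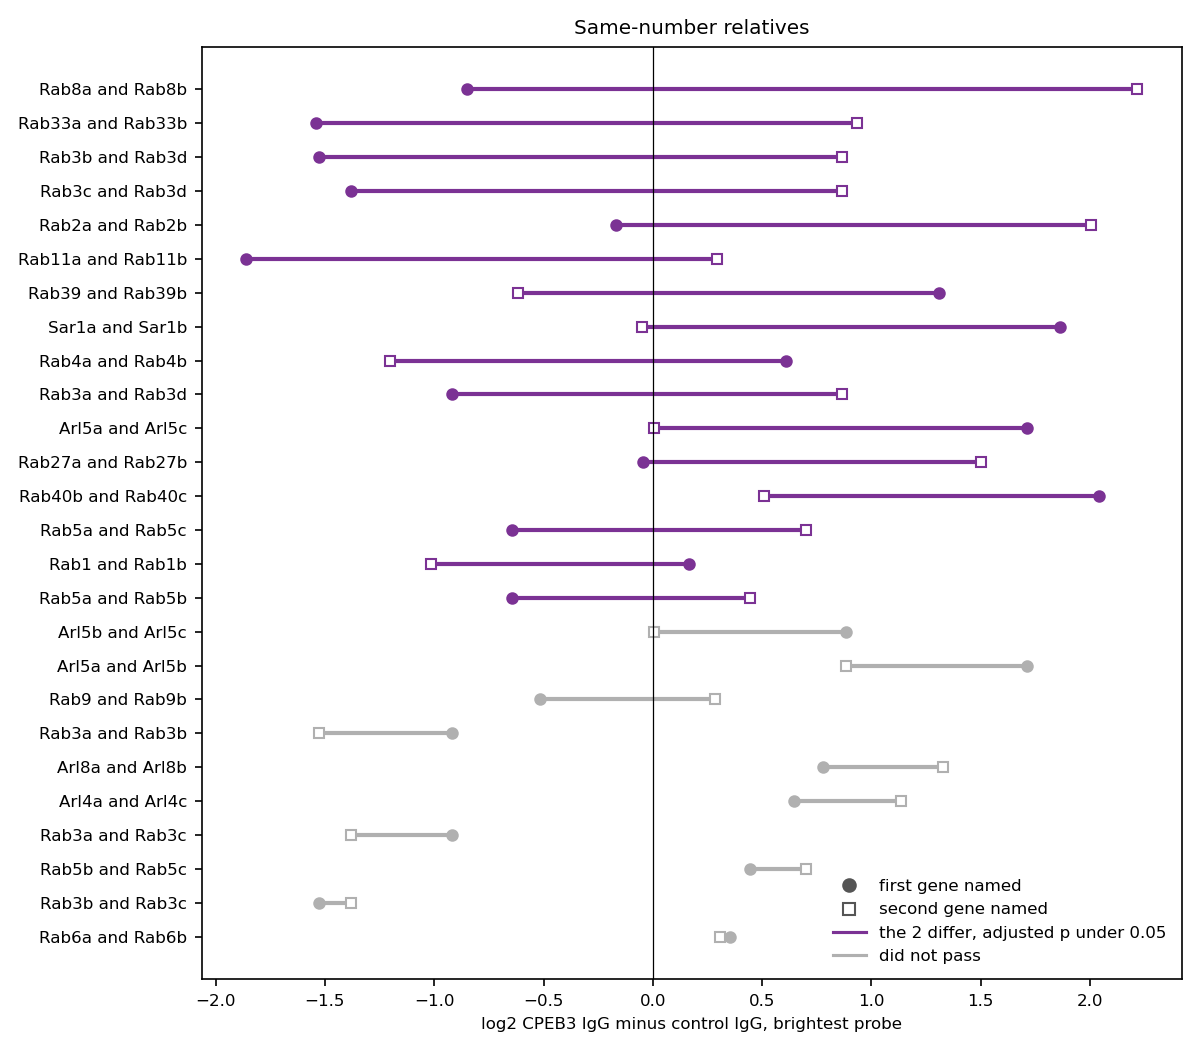
Log2 difference, CPEB3 IgG minus control IgG, of both genes of each of the 26 pairs of same-number relatives, with a filled circle for the first and an open square for the second gene named, joined by a purple line where the 2 differ (16 pairs) and by a grey line where the test did not pass. Rab8a and Rab8b lie furthest apart and Rab6a and Rab6b closest.

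Probe position was then followed in the members themselves, using the start that the array annotation gives on the probe's transcript. Among member genes whose brightest probe had a RefSeq accession and a position, 19 had that probe in the first 1000 nucleotides, and 2 of these were higher and 9 lower. In the range beyond 1000 and up to 2000 nucleotides 10 of 27 were higher and 4 lower, and beyond 2000 nucleotides 19 of 33 were higher and 4 lower. As shares, 10.53%, 37.0% and 57.6% were higher, and 47.4%, 14.8% and 12.1% were lower. All RefSeq genes showed the same order, with 9.30%, 19.4% and 36.8% higher and 29.99%, 24.5% and 12.4% lower. The median difference of the members was −0.74, 0.29 and 0.87 in the 3 ranges, and that of all RefSeq genes −0.41, −0.17 and 0.33. The bin of the first 1000 nucleotides holds 19 members, and its 2 higher genes were Rab28 and Arl4a.

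**Figure D4:**
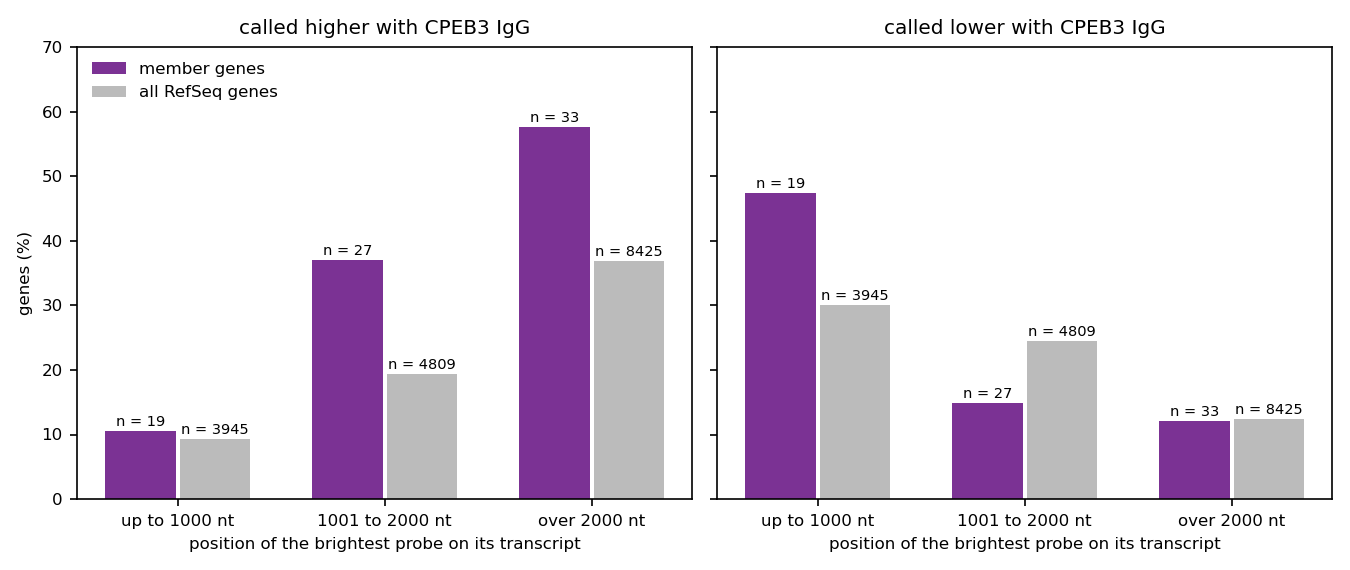
Share of genes called higher (left) and lower (right) with CPEB3 IgG, by the position of the gene's brightest probe on its transcript, for member genes (purple) and all RefSeq genes (grey), with the number of genes above each bar. Higher calls become more frequent and lower calls less frequent with distance from the 5′ end in both sets: 10.53%, 37.0% and 57.6% of the members were higher.

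Over 109 member probes with a RefSeq accession and a position, the difference correlated with position at a Spearman coefficient of 0.51. It correlated with the share of T in the probe at 0.40 and with the share of G and C at −0.33. Over 22985 RefSeq probes of all genes the coefficients were 0.35, 0.32 and −0.31. Probes share the 4 arrays, probes of 1 gene share its transcript, and position and base composition are related, so these are descriptions. At the level of probes, 37 of 114 member probes were higher and 22 lower, beside 15.8% and 18.9% of all probes and 22.1% and 19.9% of RefSeq probes. Reading frames gave a further description. In 27 member probes all 3 forward frames held a stop, and 15 of these were higher and 2 lower, while of the 87 probes with an open frame 22 were higher and 20 lower. Of all RefSeq probes with stops in 3 frames, 28.7% were higher and 15.5% lower, and of those with an open frame 20.4% were higher and 21.1% lower. Whether a probe lies in a coding region or a UTR was not analysed here.

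Within 1 gene the comparison is closer, because both probes read the same gene on the same arrays. Of the 27 members with 2 kept probes or more, 9 had a brightest and a second probe whose differences differed at an adjusted p under 0.05, beside 18.8% of 8356 genes. Among 21 members with 2 probes over 100 nucleotides apart on 1 accession, the probe nearest the 3′ end had the higher difference in 20, with a median gap of 1.08. The exception was Rab33b, whose probes at 3100 and 3247 gave 0.94 and 0.05. Among 3690 such genes of the array, the 3′ probe was higher in 78.4%, with a median gap of 0.59. In 3 members, Rab10, Rab8a and Rab4a, the 5′ probe was called lower and the 3′ probe called higher. The opposite occurred in 0 members, and over all such genes the counts were 170 and 9.

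Rab10 showed the widest gap. Its probe at nucleotide 3123 lay at 4.71 and 4.84 on the CPEB3 IgG arrays and 3.44 and 3.31 on the control arrays, whereas that at 994 lay at −0.29 and −0.09 on the CPEB3 IgG arrays and 0.97 and 0.93 on the control arrays. The first was higher by 1.40 and the second lower at −1.14, and the gap between them was 2.54 ± 0.17 (adjusted p = 0.0175). For Sar1a the probe at 2518 gave 1.86, while that at 445 lay at −0.31 and −0.12 on the CPEB3 IgG arrays and 0.47 and 0.28 on the control arrays, a difference of −0.59 that did not pass. The gap was 2.45 ± 0.19 (adjusted p = 0.0175). Rab3d had 0.87 at 2028 and −1.27 at 480, where its levels were −3.34 and −2.84 on the CPEB3 IgG arrays and −2.04 and −1.60 on the control arrays. That gap was 2.14 ± 0.18 (adjusted p = 0.0175). In Arf4 the probe at 1216 gave 1.96 and that at 700, with levels of 1.59 and 2.03 on the CPEB3 IgG arrays and 1.87 and 1.89 on the control arrays, gave −0.08, a gap of 2.03 ± 0.23 (adjusted p = 0.0205).

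Rab8a is the one of these genes whose brightest probe is the 5′ one. Its probe at 578 gave −0.85, and its probe at 1242, with levels of 0.91 and 0.99 on the CPEB3 IgG arrays and −0.22 and −0.20 on the control arrays, gave 1.16, for a gap of −2.01 ± 0.22 (adjusted p = 0.0199) as brightest minus second. Arl13b had 2.37 at 3225 and 0.43 at 572, where its levels were −0.28 and −0.08 on the CPEB3 IgG arrays and −0.40 and −0.82 on the control arrays. The gap was 1.94 ± 0.26 (adjusted p = 0.025). In Rab27b the probe at 6903 gave 1.50 and that at 2217, with levels of 0.69 and 0.43 on the CPEB3 IgG arrays and 0.80 and 0.76 on the control arrays, gave −0.22, a gap of 1.72 ± 0.16 (adjusted p = 0.0178). Rab4a had 0.61 at 1348 and −0.82 at 620, where its levels were 0.54 and 0.54 on the CPEB3 IgG arrays and 1.50 and 1.22 on the control arrays. Its gap was 1.43 ± 0.21 (adjusted p = 0.0283).

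Rab8b, the last of the 9, was higher at both probes, 2.22 at 4598 and 1.14 at 3306, with a gap of 1.08 ± 0.22 (adjusted p = 0.047). Rab3c had 2 overlapping probes, at 2305 and 2311, with differences of −1.26 and −1.38. A further probe at 8381, near the far end of its long transcript, lay at 4.01 and 4.44 on the CPEB3 IgG arrays and 3.76 and 3.85 on the control arrays. That difference was 0.42 and did not pass. As with the relatives, 0 of the 27 probe pairs passed when any 1 array was left out, and 9 to 11 had an unadjusted p under 0.05. The added choice of each gene's probe furthest 5′ gave 23 higher and 20 lower members, and that of the probe furthest 3′ gave 32 and 14. Over all genes these choices gave 14.6% higher and 20.4% lower at the 5′ probe, and 19.19% and 18.8% at the 3′ probe.

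**Figure D5:**
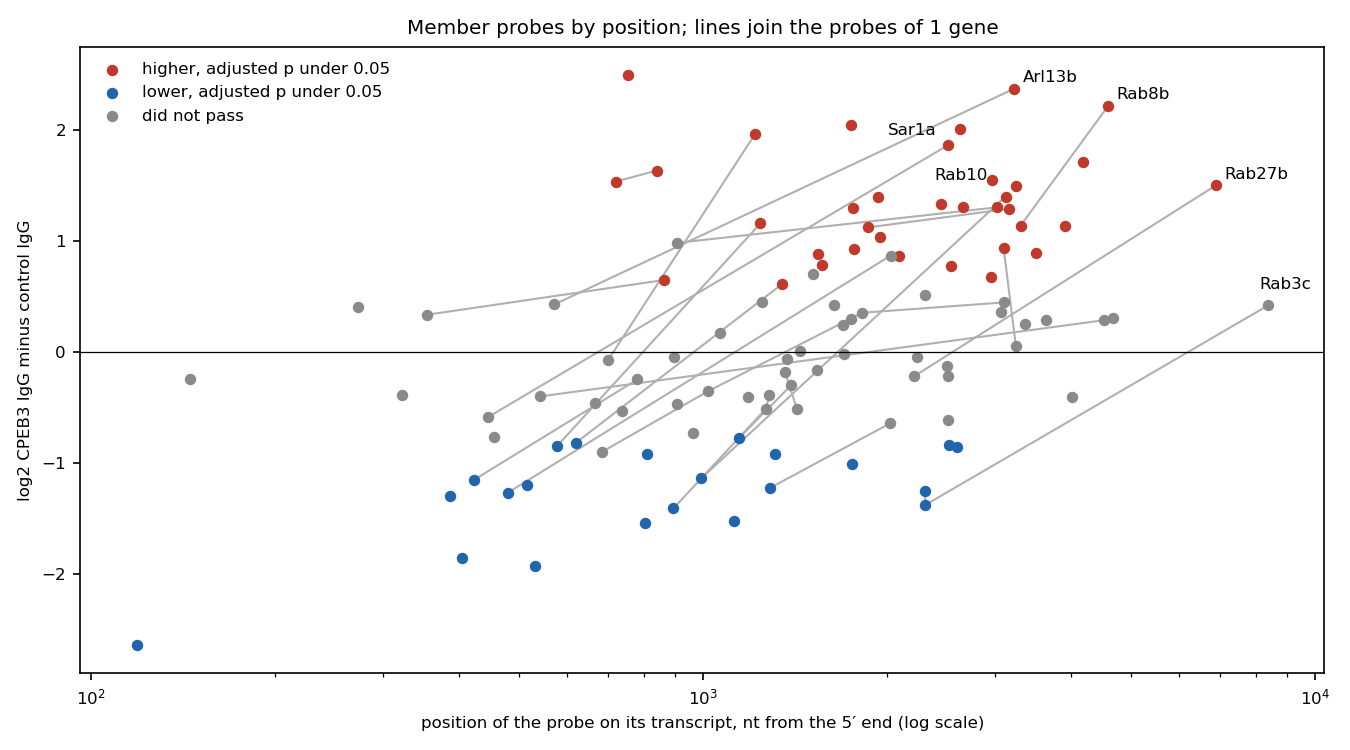
Log2 difference, CPEB3 IgG minus control IgG, of each of the 109 member probes against its start on the transcript in nucleotides from the 5′ end (log scale), with grey lines joining probes of 1 gene. Red points (called higher) lie mostly to the right and blue points (called lower) mostly to the left, and in 20 of 21 genes with probes over 100 nucleotides apart the line rises towards the 3′ end.

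The probes of 4 genes with wide gaps are shown, namely the 3 genes with opposite calls and Sar1a, whose gap was the widest after that of Rab10. Each line gives 30 bases of a 60-base probe in the transcript's direction, 5′ to 3′, namely the stretch with the most T, and capitals mark runs of 3 or more T. The coordinates of the whole probes are those of the array annotation on mm9.
Rab10, nucleotide 3123, chr12:3247758-3247817, minus strand: tgacagTTTTgttgTTTgcataattataat
Rab10, nucleotide 994, chr12:3252628-3252687, minus strand: TTTTgagactagtgcaaaagcaaatataaa
Sar1a, nucleotide 2518, chr10:61155962-61156021, plus strand: tgtcaTTTacaaaaggtcagtctgtatcct
Sar1a, nucleotide 445, chr10:61149215-61152569, plus strand, across an intron: gttgagcttaatgcTTTaatgactgatgaa
Rab8a, nucleotide 1242, chr8:74704496-74704555, plus strand: ttagaggaTTTTggaagaagtggaccgctt
Rab8a, nucleotide 578, chr8:74700227-74700286, plus strand: actcgactatgggatcaagttcatggagac
Rab4a, nucleotide 1348, chr8:126359128-126359187, plus strand: cacctggaaataaagtggaacggagTTTct
Rab4a, nucleotide 620, chr8:126356738-126356797, plus strand: gcTTTcatgcagtgtgcaaggaaaatactt
The 3′ stretch of Rab10 holds 15 T and its 5′ stretch 8, while both stretches of Sar1a hold 11. In Rab8a the counts are 9 at the 3′ probe and 7 at the 5′ probe, and in Rab4a they are 7 and 9. In these 4 genes the stretch with more T was that of the higher difference in Rab10 and Rab8a and that of the lower difference in Rab4a. Over the whole 60-base probes Sar1a went as Rab4a did, with 30% T at 2518 and 35% at 445. The other genes kept their order.

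The cytoplasmic polyadenylation element after which the CPEB proteins are named was searched in 3 forms, namely TTTTAT, the form TTTTAAT and the form TTTTAAAT, on the strand of the transcript. It stood in 5 of 114 member probes (4.39%), beside 5.70% of 22992 RefSeq probes. These 5 are shown with the form in capitals.
Rab36, nucleotide 2545, chr10:74516771-74516830, plus strand: gtcTTTTATtctaaaaagtatataaaacat
Rab2a, nucleotide 1539, chr4:8534332-8534391, plus strand: gtgttaacctgTTTTAATgccaaaagctat
Rab5b, nucleotide 1821, chr10:128115534-128115593, minus strand: tccttcaaccgTTTTAATtaaatggaatct
Rab6a, nucleotide 3072, chr7:107789641-107789700, plus strand: atggagttgtaaagtgcTTTTATaatacac
Arl4c, nucleotide 3902, chr1:90594805-90594864, minus strand: ccccctccccTTTTATaatgcatatatgat
Rab36 at 0.77 and Arl4c at 1.14 were higher, whereas the probes of Rab2a at −0.17, Rab5b at 0.35 and Rab6a at 0.35 did not pass. So 2 of 37 higher, 0 of 22 lower and 3 of 55 uncalled member probes held a form, and over all RefSeq probes 11.3% of the higher, 2.44% of the lower and 4.67% of the uncalled ones did. A 60-base probe is a small window of a transcript, and no match says only that these letters are not in it.

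The proteins that switch and use these GTPases were followed through 6 lists. Of 172 kept genes, 50 were higher and 22 lower, or 29.1% and 12.8%, beside 19.2% and 20.2% of all genes and 25.6% and 19.8% of the RefSeq genes. Their median difference was 0.12, and the shares over all genes are also the background of the counts per list below. Among 14 genes that escort and lipid-modify the GTPases, 3 were higher and 2 lower. Gdi2, which extracts Rabs from membranes, was lower at −1.18 ± 0.15 (adjusted p = 0.00785). Chm, the escort protein that presents new Rabs for prenylation, was higher at 1.26 ± 0.21 (adjusted p = 0.0135).

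Rab exchange factors gave 11 higher and 4 lower of 31. The largest were Ric1 (C030046E11Rik on the array), a subunit of the exchange factor for Rab6, at 2.28 ± 0.20 (adjusted p = 0.00408), and the Rab5 exchange factors Rabgef1 at 1.92 ± 0.17 (adjusted p = 0.00408) and Rin2 at 1.90 ± 0.23 (adjusted p = 0.00666). Rab GTPase-activating proteins, mostly of the TBC family, gave 12 higher and 3 lower of 33. Tbc1d2b lay at 0.87 and 0.70 on the CPEB3 IgG arrays and −2.08 and −1.43 on the control arrays, with no overlap and a difference of 2.54 ± 0.27 (adjusted p = 0.0054). Tbc1d17 went the other way, at −0.15 and −0.25 on the CPEB3 IgG arrays and 2.12 and 2.41 on the control arrays, with a difference of −2.46 ± 0.18 (adjusted p = 0.00384). Tbc1d14, a regulator of autophagy, was higher at 2.24 ± 0.17 (adjusted p = 0.00384).

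Arf exchange factors gave 5 higher and 2 lower of 15. The Arf6 exchange factor Psd was higher at 1.81 ± 0.24 (adjusted p = 0.00832) and Arfgef2, of the trans-Golgi network, at 1.18 ± 0.15 (adjusted p = 0.00766), while Gbf1, which activates Arf1 at the early Golgi, was lower at −1.80 ± 0.27 (adjusted p = 0.0116). Arf GTPase-activating proteins were the one list with more lower than higher genes, 7 against 5 of 29, while the counts were 3 against 6 under median scaling and 0 against 4 under spike-in scaling. Agap2 and Elmod1 were higher at 1.89 ± 0.19 (adjusted p = 0.0048) and 1.45 ± 0.22 (adjusted p = 0.0117), and Arfgap2, of the COPI coat cycle, was lower at −1.18 ± 0.15 (adjusted p = 0.0073). Effectors gave 14 higher and 4 lower of 50. Golga4, a trans-Golgi tether bound by Arl1, lay at 4.85 and 4.49 on the CPEB3 IgG arrays and 2.13 and 1.95 on the control arrays, with a difference of 2.63 ± 0.20 (adjusted p = 0.00384). Eea1, the tether of early endosomes bound by Rab5, lay at 2.82 and 2.81 on the CPEB3 IgG arrays and 0.72 and 0.88 on the control arrays, with a difference of 2.01 ± 0.15 (adjusted p = 0.00384). Sytl4, a Rab27 effector on secretory granules, was higher at 1.53 ± 0.17 (adjusted p = 0.00555). With the mean of a gene's probes, Rabgef1 (0.67), Arfgef2 (0.18) and Sytl4 (0.60) lost their calls. Gdi2, Gbf1 and Arfgap2 lost theirs under spike-in scaling, Arfgef2 also without scaling, Chm and Elmod1 without CPEB3 IgG replicate 2, and Chm and Arfgef2 without CPEB3 IgG replicate 1.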

How the data were processed

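The authors deposited 1 scanner file per array, which holds the intensity of every spot as written by version 10.5.1.1 of Agilent Feature Extraction, per the file headers. According to those headers the signal used here was background-subtracted and detrended inside each array, given a substitute value near background, and left unnormalised between arrays. The test the authors applied was not given in the sources used here. Groups and replicate numbers come from the sample labels, with 2 arrays per group on 1 slide with 1 scan date.

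Each array has 62976 spots, 3671 of them controls. Control spots and spots flagged as outliers were left out, spots of a probe were averaged, and 63 probes lacking a value on some array could not be fitted. Levels are log2 processed signal minus the array's 75th percentile, and a probe was kept if it was well above background on 2 arrays or more. The test was that of limma (version 3.58.1, R 4.3.3), with lmFit and eBayes and without a block, with Benjamini-Hochberg adjustment over all features of each fit and a threshold of 0.05. Gaps between probes or relatives were fitted on per-array differences, over all genes with 2 kept probes together with the pairs of relatives. Intervals of 95% rest on limma's moderated degrees of freedom.

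Of the member probes, 112 matched a RefSeq symbol by accession, 1 of them under another symbol (Rab1, now Rab1a), and 8 kept the array's name only. Probe positions, sequences and mm9 coordinates are the array's, per the file headers. The 2 overlapping Rab3c probes, 6 nucleotides apart, share 54 identical bases when read along the transcript, which sets the strand. No protein sequences and no genome of that build were used, so coding regions and UTRs, and protein identity between relatives, were not analysed here.

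The members, the role groups and the gene lists were chosen with earlier results of these data known. Values on every array are given for the 10 highest and 10 lowest called members above background on all arrays, a fixed set of well-known members whatever their result, and members whose probe pair or relatives differed. Of each list up to 3 called genes with the largest difference are named. A withheld item among them is not reported here. Alternatives were normexp background correction (offset 50), quantile, median, spike-in and no scaling, no filter or a filter on all 4 arrays, a block for the replicate number, omission of each array, the mean of a gene's probes, a 2-fold minimum, an intensity trend and, added after seeing the data, the probe furthest 3′ or 5′. Replicate arrays shared 0 identical spot values within either group.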

Additional observations from a re-analysis of the deposited data

How the results depend on the processing

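Of the 49 called members, 14 kept call and direction under all alternatives run for single genes. Normexp, quantile scaling, both filters and the intensity trend left the counts of members in all and per family, where run, within 1.5 times and the members' median on its side, apart from 1 lower Arl gene under normexp. Without a filter 7 pairs of relatives passed, and under quantile scaling endosome entry had 2 higher and 2 lower genes. Median scaling gave 38 higher and 11 lower members, 14 lower member probes, 1 lower Arl, 0 lower Arf and Sar1 and 13 lower list genes, with a members' median of 0.58. Spike-in scaling gave 29 higher and 1 lower members, 1 lower member probe, 0 lower Rab, 1 lower Arl, 0 lower Arf and Sar1 and 4 lower list genes, with a median of 1.01. Without scaling there were 18 higher and 8 lower members, 21 and 14 member probes, 11 and 7 Rab, 4 and 1 Arl, 0 lower Arf and Sar1, and 25 and 13 list genes. A 2-fold minimum left 21 and 9 members, and the mean of a gene's probes gave a median of 0.17 and 1 lower Arl. The probe furthest 5′ gave a median of −0.047. Median scaling adds 0.29 to every difference, spike-in scaling 0.72 and no scaling −0.036. The 2 CPEB3 IgG arrays had 75th percentiles of 507 and 353 units and mean log2 spike-in signals of 13.1 and 13.4. Spike-in scaling and no scaling therefore also change the spread between these replicates. The part of the added constant, of that spread and of the probe used in these shifts was not tested.

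With each array left out in turn, where the lone array of a group is assumed to vary like the other group, members numbered 15 to 24 higher and 5 to 12 lower, Rab 9 to 13 higher and 4 to 11 lower, Arl 3 to 7 higher and 1 lower, Arf and Sar1 0 lower, member probes 14 to 24 higher and 6 to 13 lower, and list genes 23 to 39 higher and 9 to 17 lower. Probe pairs and pairs of relatives that passed by limma fell to 0 of 27 and 0 of 26 each time, with 9 to 11 and 16 to 19 at an unadjusted p under 0.05; 0 of all 8356 probe pairs passed in those fits.

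Among the called members, the well-known members and the named list genes, direction changed for Sar1b under median scaling (0.24), spike-in scaling (0.67) and without control IgG replicate 2 (0.22, with −0.32 as the lowest value when an array was left out), for Rab39b (0.10) and Rab5a (0.069) under spike-in scaling, and with the mean of probes for Rab3d (−0.20), Rab4a (−0.11), Rab8a (0.15) and Rab5b (−0.12). Spike-in scaling adds 0.72 to every difference and changed the sign of 18 members in all, 2 of them called. With the mean of probes, calls were lost for Rab10 (0.13), Rab33b (0.49), Arl4a (0.49), Arl6 (−0.54), Rabgef1 (0.67), Arfgef2 (0.18) and Sytl4 (0.60).

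The replicate number as a block gave 33 higher and 17 lower members, 39 and 23 member probes, 8 probe pairs and 14 pairs of relatives. Rab5a lost its call and Rab5c gained one. Deviations of same-numbered arrays correlated at 0.356 between the groups, which with 2 pairs does not show that the numbers pair the samples. Signal over background left 3 of the 84 members untested, and 2 arrays a group limit the precision of the rest.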

Other observations

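Relatives of the same GTPases stand on the array under names or letters that the symbol rule does not take. Arl4d, like Arl4a and Arl4c a GTPase of the plasma membrane, had 2 probes, and both were higher with CPEB3 IgG, by 1.32 ± 0.17 (SE, adjusted p by limma over all probes = 0.00976) and 1.38 ± 0.16 (adjusted p = 0.00741). Rab29, named Rab7l1 on the array, was lower at 1 probe, −0.91 ± 0.17 (adjusted p = 0.0193), and did not pass at the other, −0.59 ± 0.25 (adjusted p = 0.143). Rab7b, named 5430435G22Rik on the array, had a difference of 0.23 ± 0.27 (adjusted p = 0.547). All 5 probes were well above background on all 4 arrays.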
